A study of Homo sapiens with 16 samples.

Results

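Promoter peaks without the DNA core that HIF recognises were examined in 16 ChIP-seq peak lists, and 4277 of the 12232 promoter peaks (35.0%) were of this kind. A promoter peak was one centred within 1000 bp of a protein-coding start site, and it lacked the core when neither strand of its central 200 bp held RCGTG, that is ACGTG or GCGTG. The remaining 7955 promoter peaks held at least 1 copy and serve as the comparison. Promoter peaks made up 52.3% of the 23369 peaks on chromosomes 1 to 22, X and Y.

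ChIP-seq recovers DNA bound by a protein with an antibody and lists the stretches where that DNA accumulates, called peaks. The libraries came from cell lines of breast (T47D), prostate (PC3), colon (HCT116) and lung (A549) cancer, all kept in 0.5% oxygen for 16 h, and were made with rabbit polyclonal antibodies against HIF-1α (PM14) or HIF-2α (PM9). There were 2 replicates for each antibody in each line (8 groups), and no normoxic library was analysed here. No source used here says that replicates were separate cultures, so the spread between them may be technical, and peak lists carry no expression by which the identity of a line could be checked.

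HIF is a dimer of an oxygen-regulated α subunit, HIF-1α or HIF-2α, with the constitutive HIF-1β subunit. In well-oxygenated cells prolyl hydroxylases mark the α subunits for destruction, and in hypoxia the dimer accumulates and binds RCGTG, the core of the hypoxia response element. The core holds a CpG dinucleotide, and most human promoters lie in CpG islands, where cores also occur by base composition. ChIP can also recover DNA that a factor reaches through other proteins or through looped chromatin, which the sequence under a peak does not show.

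The centres below are printed to show what a promoter peak without the core looks like beside ones that hold it. Each run is the longest stretch outside annotated untranslated regions within the central 200 bp of the highest-scoring peak of the locus, read 5′ to 3′ on the plus strand of GRCh37. In the first 6, which lack the core, capitals mark the sequences that differ from it in the first base (CCGTG or TCGTG, on either strand). SEMA4B, encoding a transmembrane semaphorin, is included for its 3 such copies.
C4orf3 (chr4:120221801-120221960): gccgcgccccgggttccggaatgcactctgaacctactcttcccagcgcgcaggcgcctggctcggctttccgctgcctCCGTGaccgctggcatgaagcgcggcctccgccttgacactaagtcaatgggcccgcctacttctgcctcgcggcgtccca
TNIP1 (chr5:150460646-150460772): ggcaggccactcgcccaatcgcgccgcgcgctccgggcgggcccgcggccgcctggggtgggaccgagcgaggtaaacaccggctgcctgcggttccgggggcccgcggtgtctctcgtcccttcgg
ZNF160 (chr19:53606403-53606517): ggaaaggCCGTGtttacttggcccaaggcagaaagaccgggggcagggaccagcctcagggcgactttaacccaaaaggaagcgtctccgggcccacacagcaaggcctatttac
MRPL39 (chr21:26979830-26979916): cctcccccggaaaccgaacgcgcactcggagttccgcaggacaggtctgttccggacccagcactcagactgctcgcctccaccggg
RSRC2 (chr12:123011291-123011394): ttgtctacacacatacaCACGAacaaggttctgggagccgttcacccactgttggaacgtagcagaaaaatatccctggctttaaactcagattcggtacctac
SEMA4B (chr15:90727964-90728151): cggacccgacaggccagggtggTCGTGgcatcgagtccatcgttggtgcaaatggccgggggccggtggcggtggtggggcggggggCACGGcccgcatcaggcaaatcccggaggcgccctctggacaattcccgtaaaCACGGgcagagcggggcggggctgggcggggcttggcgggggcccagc

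In the next runs, from the LDHA and ENO1 promoters, capitals mark RCGTG on either strand.
LDHA (chr11:18416021-18416106): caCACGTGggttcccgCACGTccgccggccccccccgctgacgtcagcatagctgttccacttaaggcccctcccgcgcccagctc
ENO1 (chr1:8938780-8938870): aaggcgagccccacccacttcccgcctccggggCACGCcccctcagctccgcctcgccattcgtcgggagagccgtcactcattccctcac
The LDHA run carried 3 core copies, 2 of which share a CACGTG palindrome, and the ENO1 run carried 1. The C4orf3 and MRPL39 runs each held 2 copies of the ETS sequence CCGGAA, counted on both strands. In C4orf3 the 2 copies share a TTCCGGAA palindrome, and in MRPL39 they are separate. The TNIP1 run held 1 copy each of the ETS, SP1 and NFY sequences. The ZNF160 and RSRC2 runs held none of the other factor sequences that were searched.

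The first question was where such peaks were found. The share of promoter peaks lacking the core was highest in HCT116 for HIF-1α, at 37.4% and 39.4% of the replicates' promoter peaks. The other HIF-1α replicates gave 30.6% and 34.9% (PC3), 28.5% and 28.9% (A549), and 26.0% and 23.9% (T47D). HIF-2α replicates gave 36.8% and 40.8% (PC3), 34.2% and 29.1% (HCT116), 27.2% and 31.9% (A549), and 27.1% and 19% (T47D). T47D was the lowest line for both isoforms, while the highest was HCT116 for HIF-1α and PC3 for HIF-2α. The HIF-2α shares rest on few peaks in some libraries: 14 of 38 promoter peaks lacked the core in PC3 replicate 1 (95% Wilson interval 23.4% to 52.7%, counting error only), and 16 of 84 in T47D replicate 2. Lists were longest for HIF-1α in HCT116 and PC3, and these 4 libraries held 3368 of the 4277 peaks (78.7%). In all, 3753 of the peaks lacking the core came from HIF-1α libraries and 524 from HIF-2α libraries. Promoter peaks of any kind were concentrated likewise, with means per library of 3041 in HCT116 HIF-1α and 1535 in PC3 HIF-1α. Means were 250.5 and 482.5 in the A549 and T47D HIF-1α groups, and 77 to 348.5 in the HIF-2α groups.

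**Figure D1:**
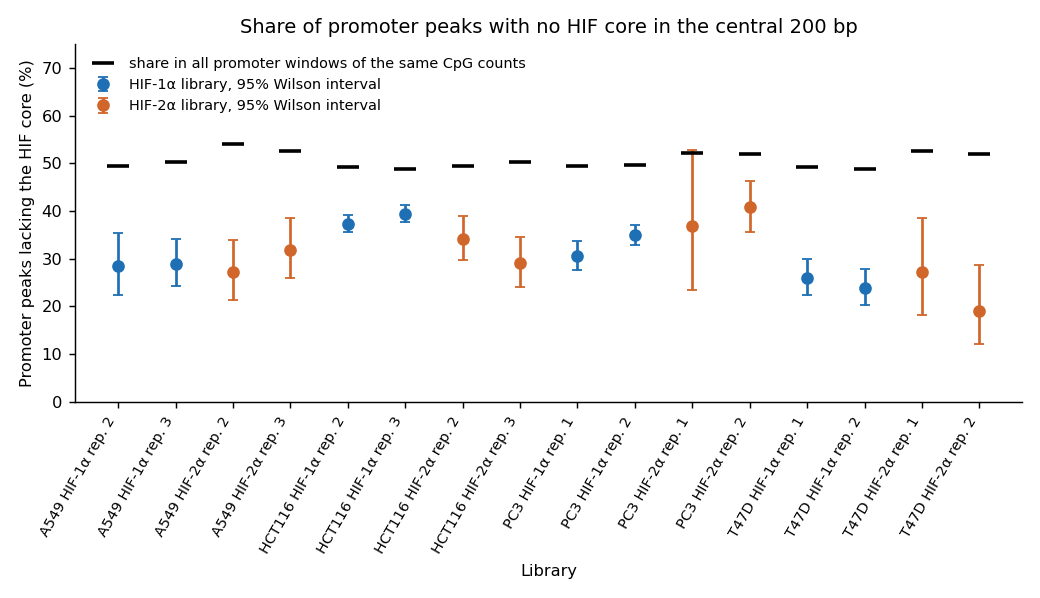
Share of promoter peaks with no HIF core in the central 200 bp (%, vertical axis) in each of the 16 libraries. Points carry 95% Wilson intervals, and black marks give the share among all promoter windows with the same CpG counts. Every point lies below its black mark, with differences from -9.38 points in HCT116 HIF-1α replicate 3 to -32.9 points in T47D HIF-2α replicate 2.

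The isoforms did not differ detectably in this share. The mean over the 4 lines was 31.2% for HIF-1α and 30.8% for HIF-2α, a difference of 0.417 percentage points (SD 5.33 over lines, range -6.03 to 6.75, adjusted p = 0.835, exact permutation of isoform labels within lines). The difference was positive in HCT116 and T47D and negative in A549 and PC3. Outside promoters, where 45.6% of 11137 peaks lacked the core, HIF-1α peaks lacked it less often in each of the 4 lines, with line means of 40.1% against 50.04% (HIF-1α minus HIF-2α between -13.4 and -5.24 points, not tested). Searching the entire peak in place of its centre reversed the promoter difference to -2.02 points (HIF-1α lower, adjusted p = 0.0190, exact permutation). A shorter peak offers fewer positions for a core. Median widths of peaks lacking the central core, HIF-2α against HIF-1α, were 867.5 against 1414.5 bp in HCT116 and 726.5 against 1355 bp in T47D. They were 1128 against 1257 bp in PC3 and 1156.5 against 1139.5 bp in A549, and the part of width was not tested.

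Cell lines differed in the share for HIF-1α. The line means were 38.4% ± 1.47 (SD, n = 2) in HCT116, 32.8% ± 3.05 in PC3, 28.7% ± 0.276 in A549 and 24.9% ± 1.51 in T47D, and their variance of 33.3 was the highest of the 2520 assignments of libraries to lines (adjusted p = 0.0238, exact permutation test, one-sided). Replicates overlapped between no pair of neighbouring lines in this order. For HIF-2α the means were 38.8% ± 2.81 in PC3, 31.6% ± 3.63 in HCT116, 29.6% ± 3.32 in A549 and 23.1% ± 5.72 in T47D, and the variance of 42.0 missed the threshold (adjusted p = 0.0586, exact permutation test). The HIF-1α order follows the number of promoter peaks for the first 2 lines only, with 3041 in HCT116, 1535 in PC3, 250.5 in A549 and 482.5 in T47D. Taking equal numbers of best-scoring peaks from each library reduced the HIF-1α variance to 14.5 and ended the call (p = 0.133, exact permutation test). The call was also lost, at variances of 29.1 to 36.7, without any one of the A549 or PC3 replicates or T47D replicate 2.

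Peaks lacking the core were CpG-rich, though less so than those holding it. Their central 200 bp contained a median of 20 CpG (interquartile range 14 to 25) against 22 (17 to 26) in peaks holding the core, and both had a median GC content of 71.0%. The core itself contains a CpG, so the CpG difference is partly set by the selection and was not tested. Promoter windows of 200 bp at large, tiled within 1000 bp of 1 start of each of 20162 protein-coding genes, had a median of 6 CpG, and 66.1% lacked the core. Given the CpG counts of the peaks, 49.5% of promoter windows would lack it, against the 35.0% observed, and the observed share was below this CpG expectation in 16 of 16 libraries. In PC3 HIF-2α replicate 1 the Wilson interval reached the expectation of 52.1%. The gap was present in each CpG class, from 67.4% against 84.3% of windows with 0 to 4 CpG to 31.2% against 47.4% of windows with 20 or more.

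Most of these peaks had a core copy further out. In 4081 of the 4277 (95.4%) RCGTG occurred elsewhere in the peak, and the nearest copy lay a median of 167 bp from the centre (interquartile range 128 to 239 bp). The peaks had a median width of 1347 bp, and the share expected at this length from core density alone was not computed. Peaks lacking the core in the central window carried 3.48 copies per kb over their full length, against 4.99 in peaks holding it. That length includes the central window, so this gap is partly set by the selection. At 100 to 150 bp from the centre the densities were 5.24 against 5.99 copies per kb. At 450 to 500 bp they were 3.34 against 3.25. In the 100 to 200 bp ring outside the window, cores per CpG were denser than in the 300 to 500 bp ring in 7 of 8 groups, the exception being PC3 HIF-2α (5.57 against 5.74 copies per 100 CpG). The ring values ranged widely, from 7.42 against 5.37 in A549 HIF-1α to 4.96 against 4.84 in HCT116 HIF-1α. In peaks holding the core the 100 to 200 bp ring was the denser in every group. Their values were 6.93 against 5.33 in A549 HIF-1α and 5.30 against 4.79 in HCT116 HIF-1α. All promoter windows together had 5.54 copies per 100 CpG.

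**Figure D2:**
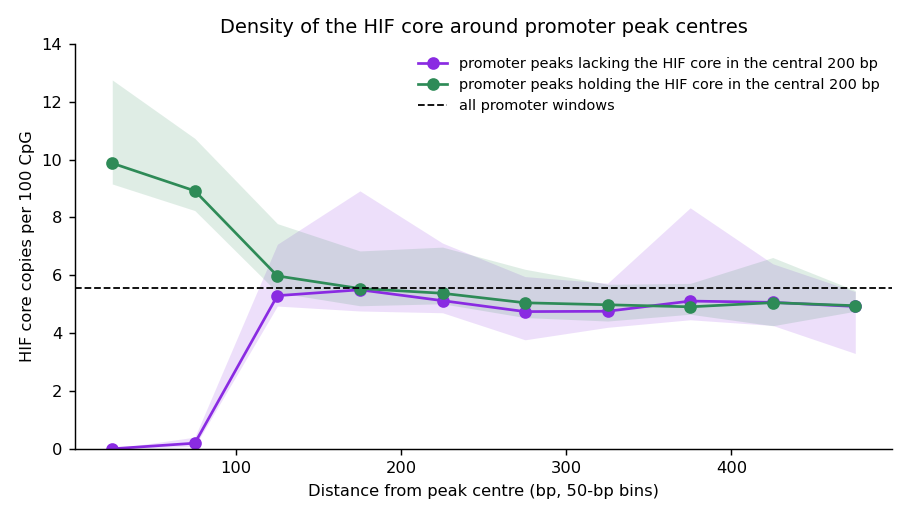
HIF core copies per 100 CpG (vertical axis) by distance from the peak centre (bp, in bins of 50 bp) for promoter peaks lacking or holding the core in the central 200 bp. Shading spans the lowest to highest of 8 groups, and the dashed line marks 5.54 copies in all promoter windows. The contrast within 100 bp of the centre is set by the selection; beyond it the curve of peaks lacking the core runs from 5.30 at 100 to 150 bp to 4.92 at 450 to 500 bp, close to that of peaks holding it.

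Peaks on either side of the window's edge had similar values. Just outside it, 921 peaks (21.5% of those lacking the core) had their nearest core within 25 bp of the window, with a median score percentile of 54.6, and 53.4% were overlapped in the other replicate. Just inside it, 1117 peaks had their nearest core 75 bp or more from the centre, with a median percentile of 55.3 and 54.2% overlapped. These values are given as a description, with no test.

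A smaller set had no core at any distance. RCGTG was absent from the entire peak in 196 peaks (4.58%), near 152 genes. These were shorter (median 934 bp against 1372 bp for the others lacking the core), ranked lower in score (median percentile 29.0 against 52.4) and were overlapped in the other replicate less often (61 peaks, 31.1%, against 50.3%). A short peak offers fewer positions for a core, so length was part of this selection. When overlapping promoter peaks of all libraries were merged into loci, 119 loci had no core in any of their peaks, of which 98 had a peak in 1 library and 15 in both replicates of a group. The most recurrent, named after their values were seen, were CBX5, encoding the heterochromatin protein HP1α (chr12:54652604-54653834, 5 HIF-1α libraries, mean percentile 69.4), and CTDSPL2, encoding a phosphatase-like protein (chr15:44719077-44720538, 5 HIF-1α libraries, mean percentile 58.6). ANKRD11 and PARD3 had such loci in both HIF-2α replicates of A549, with mean percentiles of 16.7 and 71.1.

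The next comparison was of peak strength. The authors' score ranks peaks within a library, and it is given here as a percentile among all peaks of the library. The median percentile of peaks lacking the core was 51.9 over the 8 groups, against 56.4 for peaks holding it, a difference of -4.44 points (SD 5.07, lower in 6 of 8 groups, adjusted p = 0.0586, exact sign-flip permutation test). The group values of PC3 HIF-2α and of A549 averaged replicates of opposite sign, at -33.6 and 8.49 points for PC3 HIF-2α, -10.1 and 11.9 for A549 HIF-1α and 11.5 and -4.40 for A549 HIF-2α. In the other 5 groups both replicates were negative. PC3 HIF-2α replicate 1, with 38 promoter peaks, weighed most, and without it the difference was -1.81 points. The gap did not differ detectably between isoforms (1.59 points, SD 4.94 over lines, adjusted p = 0.835, exact permutation test). The whole-peak search gave a larger gap of -21.9 points, which passed the threshold, as did the restriction to 500 bp of a start at -5.63 points. Only 196 peaks lacked the core in the whole-peak search, spread over the libraries, and that rule selects short peaks (median 934 bp). Its gap therefore mixes length with the core, and the part of length was not tested. From the lowest to the highest score decile of each library the share lacking the core went from 36.1% ± 7.23 to 28.3% ± 4.16 (SD, n = 8 libraries) for HIF-1α and from 42.2% ± 16.3 to 23.7% ± 6.77 (n = 8) for HIF-2α. Some HIF-2α deciles held few promoter peaks, with 3 in the lowest decile of PC3 replicate 1 and 5 in that of each T47D replicate. With the peaks of all libraries pooled, the share went from 40.5% to 28.9% for HIF-1α and from 37.9% to 26.3% for HIF-2α. The share was lower in the highest than in the lowest decile in 14 of 16 libraries, the exceptions being A549 HIF-1α replicate 3 (34.2% against 22.7%) and A549 HIF-2α replicate 2 (25% in both). Even the best-scoring promoter peaks thus included many without it, with 360 of 1260 in the highest decile.

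**Figure D3:**
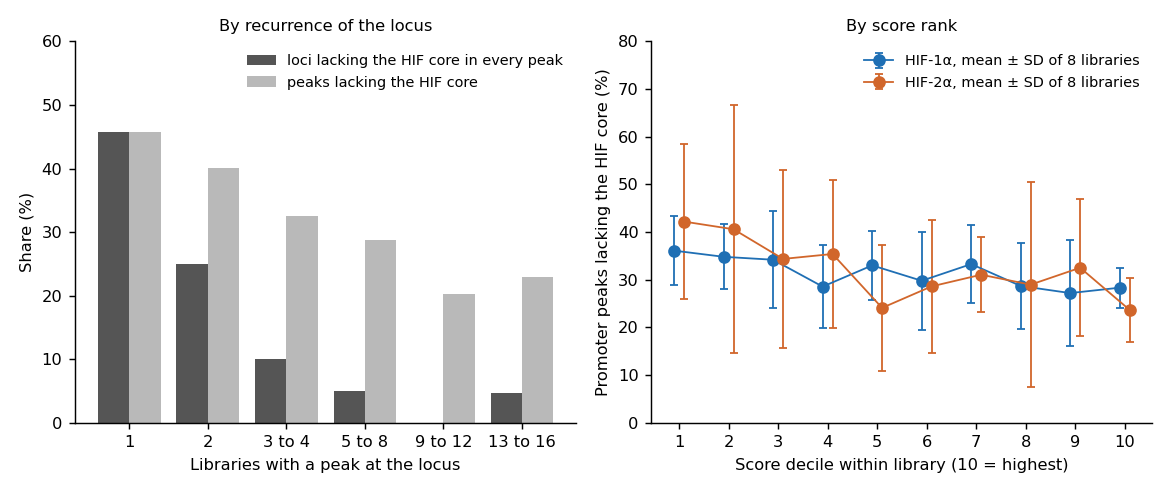
Left, share (%) of promoter loci in which no peak holds the core (dark bars) and of promoter peaks lacking it (light bars), by the number of libraries with a peak at the locus. Right, share of promoter peaks lacking the core (%) by score decile within the library, as mean ± SD of 8 libraries per isoform. Dark bars go from 45.8% at loci of 1 library to 4.76% at loci of 13 to 16 libraries, while light bars go from 45.8% to 22.9%.

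Peaks lacking the core were found again in other libraries less often than peaks holding it. A peak was overlapped by at least 1 bp in the other replicate for 49.3% of peaks lacking the core and 58.1% of peaks holding it, a difference of -8.87 points (SD 6.43, lower in 8 of 8 groups, adjusted p = 0.0238, exact sign-flip permutation test, raw p = 0.00781 being the smallest it can give). In HCT116 HIF-2α recovery was 26.2% against 43.6%, with differences of -13.3 and -21.5 points in its replicates. The short HIF-2α lists gave unlike replicates, with -38.7 and 0.450 points in PC3 and -20.6 and 18.4 points in T47D, and A549 HIF-1α gave -13.4 and 7.14 points. Without the PC3 HIF-2α group, both replicates left out, the overall difference was -7.40 points and still passed (adjusted p = 0.0391, exact permutation test). With peaks scoring at or above the median of all peaks it was -4.43 points and no longer passed, and within classes of CpG count it was -7.20 points and did not pass (p = 0.0781 for both, exact permutation test).

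Recovery by the other isoform in the same line showed the same direction. It was 37.1% for peaks lacking the core and 48.9% for peaks holding it, a difference of -11.8 points (SD 10.3, lower in 8 of 8 groups, adjusted p = 0.0238, exact sign-flip permutation test). Overlaps within a line were counted from both isoforms, so the groups of a line are not independent units in this test. For the 4 HIF-2α groups the gap lay between -25.8 and -15.5 points, with single libraries from -38.7 in PC3 replicate 1 to -1.55 in T47D replicate 1, and for the 4 HIF-1α groups between -4.80 and -1.46. A difference between isoforms in this gap was not tested, and HIF-1α peaks were seldom overlapped by the shorter HIF-2α lists in HCT116, PC3 and T47D whether they held the core (13.6% to 16.0%) or lacked it (11.2% to 13.6%). With peaks scoring at or above the median the difference was -7.16 points and did not pass.

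Recovery in at least 1 of the other 3 lines with the same isoform was 57% against 69.6%, a difference of -12.6 points (SD 8.19, lower in 8 of 8 groups, adjusted p = 0.0238, exact sign-flip permutation test). Overlaps between lines were likewise counted from both sides. The replicates of PC3 HIF-2α differed most, at -53.0 points in replicate 1 (14 peaks lacking the core) and -7.28 in replicate 2, and without replicate 1 the overall difference was -9.77 points and still passed (adjusted p = 0.0238, exact permutation test). In T47D HIF-1α recovery was 89.9% against 92.0%. In A549 and T47D, whose HIF-1α lists were short, 86.8% or more of HIF-1α promoter peaks of either kind overlapped a peak of another line. Within classes of CpG count the difference was -8.13 points and did not pass (p = 0.0547, exact permutation test), and with equal numbers of best-scoring peaks it was -10.4 points and did not pass.

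**Figure D4:**
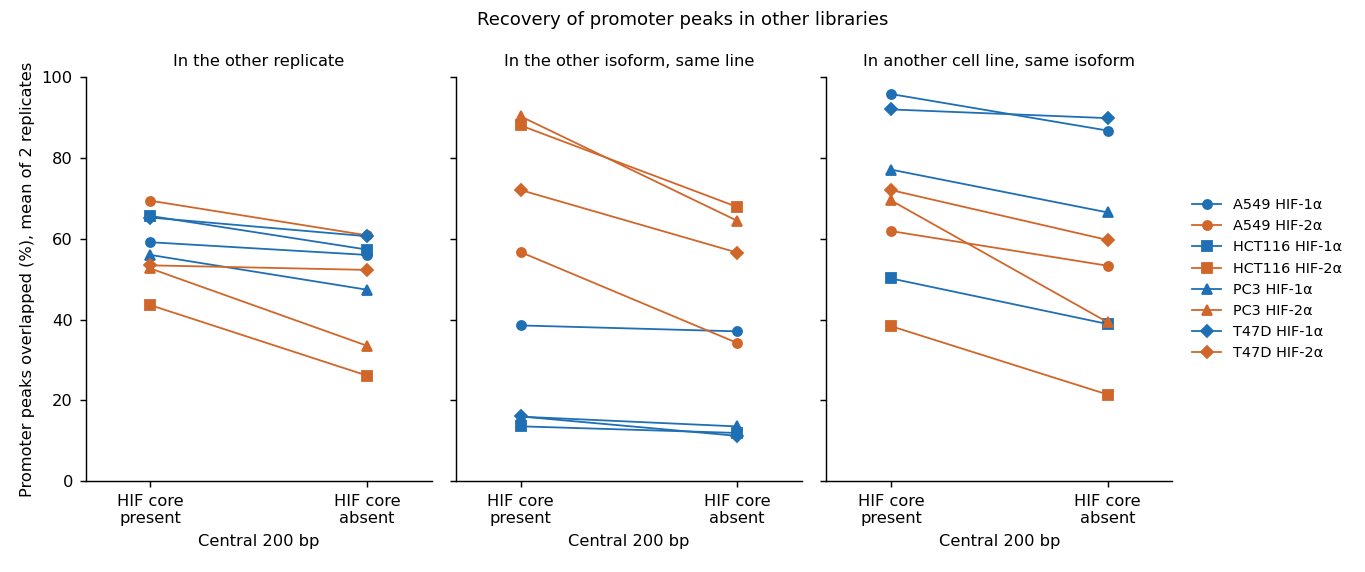
Share of promoter peaks (%, mean of 2 replicates) overlapped by a peak in the other replicate, in the other isoform of the same line, or in another line with the same isoform. Each line joins peaks with and without the HIF core in 1 of the 8 groups, with blue for HIF-1α and orange for HIF-2α. Every line falls to the right, with differences of -19.1 to -1.13 points for the other replicate.

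The same measures were then described by the number of core copies. Peaks of both replicates were pooled within each group, so the longer list weighed more. Values with 0 copies therefore differ from those given above for peaks lacking the core. Recovery in the other replicate, averaged over groups, was 44.9% ± 17.4 (SD, n = 8) with 0 copies, 46.8% ± 17.3 with 1, 54.6% ± 16.1 with 2, 58% ± 20.7 with 3 and 57.2% ± 10.1 with 4 or more. Recovery in another line went from 56.6% ± 24 with 0 copies and 60.8% ± 22.7 with 1 to 79.0% ± 18.7 with 4 or more, and recovery by the other isoform was 38.1% ± 25.1 with 0 copies and 45.0% ± 29.4 with 1. Median score percentiles were 52.6 with 0 copies, 51.5 with 1 and 56.9 with 2. Within groups, peaks with 0 copies were recovered less often than peaks with 1 copy by the other isoform in 8 of 8 groups (-6.98 points, SD 7.30), in another line in 7 of 8 (-4.20 points, SD 4.38) and in the other replicate in 5 of 8 (-1.82 points, SD 6.66). The score percentile was lower with 0 copies in 4 of 8 groups (1.14 points, SD 5.38). These differences were not tested.

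Peaks that recurred did not always keep their class. Of the 2113 peaks lacking the core that were overlapped in the other replicate, 1194 (56.5%) met a peak that also lacked it, against 3689 of 4594 (80.3%) for peaks holding it. The centres of such pairs lay a median of 120 bp apart for peaks lacking the core and 87 bp apart for peaks holding it. The 200 bp windows compared were thus often only partly the same sequence. The shares of 56.5% and 80.3% also depend on class size, as only 35.0% of all promoter peaks lacked the core. Overlaps were counted from each replicate, so a pair of unlike class generally entered both counts. The contrast between the shares therefore cannot show which class was kept better.

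Merging gave 5377 promoter loci, of which 1630 (30.3%) held no core in the centre of any peak, 2549 (47.4%) held it in every peak and 1198 (22.3%) were mixed. A locus with more peaks has more chances to be mixed, so these counts depend on recurrence. Of the loci lacking the core, 1177 (72.2%) had a peak in 1 library, 294 (18.0%) in both replicates of a group and 9 in all 4 lines. The corresponding counts for loci holding it were 1395 (54.7%), 867 (34.0%) and 76. By isoform, 1425 of the loci lacking the core (87.4%) had peaks in HIF-1α libraries only, 122 (7.48%) in HIF-2α libraries only and 83 (5.09%) in both. For loci holding it the counts were 2199 (86.3%), 101 (3.96%) and 249 (9.77%). Among peaks, where mixing plays no part, the share lacking the core went from 45.8% at loci of 1 library to 32.5% at loci of 3 to 4 and 20.3% at loci of 9 to 12, with 22.9% at loci of 13 to 16.

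C4orf3 was the most recurrent locus lacking the core. It encodes a small membrane peptide of the endoplasmic reticulum that binds the calcium pump SERCA, and its locus (chr4:120221065-120222657) had a peak in all 16 libraries. In the 8 HIF-1α libraries the score percentile was 84.8 at the lowest, 97.4 at the median and 99.6 at the highest, and in the 8 HIF-2α libraries it was 77.1, 92.7 and 97.5. It ranked high with both antibodies, and the 2 ranges overlapped. It was the best-ranked locus lacking the core in each of the 8 groups. The nearest core lay between 105 and 342 bp from the peak centre, and every peak at the locus contained 1 to 5 copies. The centre of the highest-scoring peak lay in annotated coding sequence, at -61 bp relative to the nearest start site.

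TNIP1, which encodes a partner of the ubiquitin-editing protein A20 that restrains NF-κB signalling, followed with 14 libraries (chr5:150459749-150461616). Its percentile was 46.4 at the lowest, 87.1 at the median and 97.7 at the highest in 8 HIF-1α libraries, and between 70.0 and 86.4 in 6 HIF-2α libraries. No peak was listed in PC3 HIF-2α replicate 1 or T47D HIF-2α replicate 2. The T47D HIF-1α libraries were the lowest of the HIF-1α set, at 64.3 and 46.4. The nearest core lay at least 136 bp from the centre in every library.

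The 8 loci that followed in the ranking had peaks in HIF-1α libraries and none in the HIF-2α libraries. At any recurrence, this was so for 87.4% of loci lacking the core and 86.3% of loci holding it. ZNF160, a Krüppel-associated box zinc finger gene (chr19:53605569-53607436), was present in all 8 HIF-1α libraries with percentiles of 35.9, 87.7 and 97.3 at the lowest, median and highest. Its HCT116 and PC3 values, from 91.8 to 97.3, were above those of A549 and T47D, from 35.9 to 83.6, and its nearest core lay at least 409 bp away. MRPL39, a subunit of the mitochondrial ribosome (chr21:26979052-26980621), had percentiles of 36.5, 74.2 and 92.1 in the same libraries, again with all HCT116 and PC3 values above all A549 and T47D values. RNF145, a ubiquitin ligase of the endoplasmic reticulum that takes part in sterol homeostasis (chr5:158634322-158635596), had 24.9, 76.2 and 92.8, and its replicates disagreed, with 88.4 and 25.6 in HCT116.

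ROMO1, a small mitochondrial membrane protein, had peaks in 6 HIF-1α libraries of HCT116, PC3 and T47D, with percentiles from 15.8 to 94.7. In 3 of these libraries its peak held no core at all, and in the others the nearest lay at least 639 bp from the centre. RSRC2 had peaks in 7 HIF-1α libraries with percentiles from 0.985 to 83.9. In 6 of them the peak held no core at all, and in A549 replicate 3 the single copy lay 742 bp from the centre. SFXN1, a mitochondrial serine transporter, had 96.2 and 92.9 in HCT116, 72.1 and 31.8 in PC3, 30.6 and 60.3 in T47D, and 0.159 in A549 replicate 3 with no peak in the other A549 replicate. RUNDC1 had percentiles from 27.2 to 89.1 in 7 libraries. PAM, the copper- and oxygen-dependent enzyme that amidates peptide hormones, was found in the 4 HIF-1α libraries of HCT116 and PC3, at 67.5 to 88.6. For comparison, the most recurrent loci holding the core were LDHA, lactate dehydrogenase A, and ENO1, enolase, each with a peak in 16 libraries, followed by SEC61G, CLK3 and ERO1A with 15 each.

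**Figure D5:**
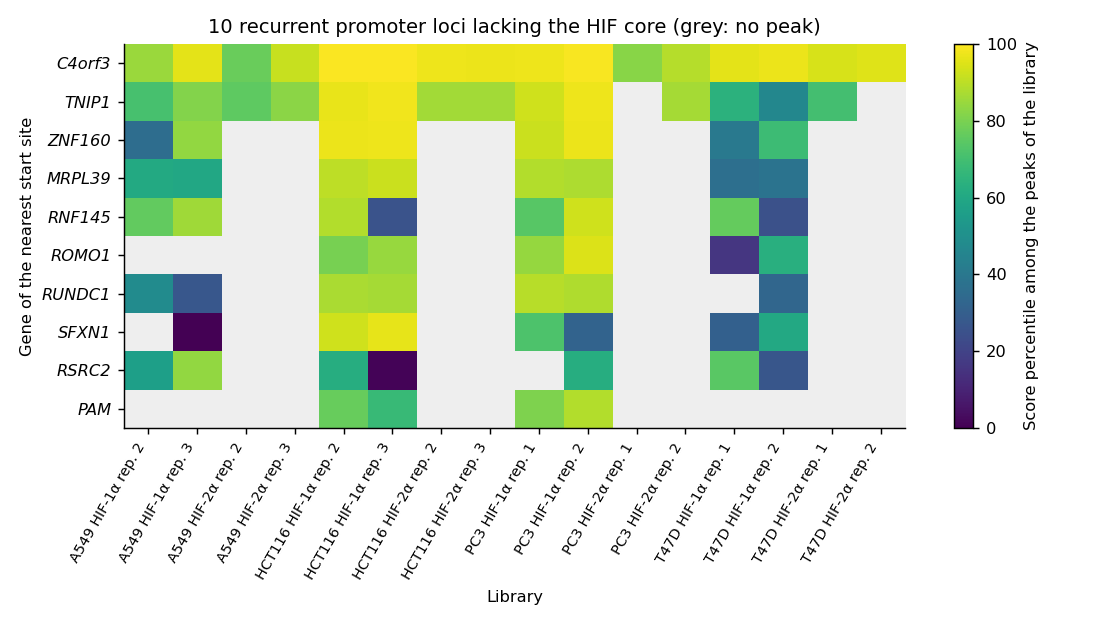
Score percentile within each of the 16 libraries (colour scale, 0 to 100) for the 10 most recurrent promoter loci lacking the core, in rows by the gene of the nearest start. Grey marks a library with no peak. C4orf3 is filled in 16 libraries and TNIP1 in 14, while the other 8 rows are filled in HIF-1α columns and empty in HIF-2α columns.

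Gene groups were then described by whether all promoter peaks of a gene lacked the core, which was so for 1533 of 5265 genes with a promoter peak (29.1%). Of the study's 48 genes bound and induced in every line, a list chosen partly on these libraries and so no independent evidence, 45 had a promoter peak. In 7 of them (15.6%) all promoter peaks lacked the core, in 9 all held it and 29 were mixed, and 140 of their 516 peaks (27.1%) lacked it, against 35.0% of all promoter peaks. These backgrounds are not matched for recurrence, and a gene with more peaks has more chances to be mixed. At loci of 5 to 8, 9 to 12 and 13 to 16 libraries, 28.7%, 20.3% and 22.9% of peaks lacked the core, so 27.1% was not low for recurrent loci. The 7 were C4orf3, TNIP1, ADM, NDRG1, PDLIM2, PGAM1 and SEMA4B. Apart from C4orf3 and TNIP1 these rested on few peaks: ADM, the vasodilator peptide adrenomedullin, had peaks in HCT116 and PC3 HIF-1α replicate 2 at percentiles of 17.8 and 32.8, and SEMA4B had 3 peaks in 3 libraries, all lacking the core, at percentiles of 15.2 to 34.2. PDLIM2 had a single peak at a percentile of 5.59. ZNF395 had a strong locus lacking the core in the centre, at percentiles of 91.9 to 94.2 in 3 HIF-1α libraries, although its peaks contained 32 to 35 core copies elsewhere.

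Among glycolysis genes, the classical HIF targets, 2 of 20 genes with a promoter peak had only peaks lacking the core, and 41 of 238 peaks (17.2%) lacked it, with the same limit of recurrence. Of the 2 genes, PFKM, muscle phosphofructokinase, had 1 peak in PC3 HIF-1α replicate 2 at a percentile of 79.0. Among the 2-oxoglutarate dioxygenases, the oxygen-dependent hydroxylases and demethylases, it was 4 of 21 genes and 53 of 154 peaks (34.4%). JMJD6 had peaks in 3 HIF-1α libraries (percentiles 57.1 to 90.9), the DNA demethylase TET3 in 2 (18.7 and 43.9) and the prolyl hydroxylase P4HTM in 1 (36.5). Immediate early and AP-1 genes gave 2 of 16 genes and 18 of 71 peaks (25.4%), with an EGR1 locus at a percentile of 39.4 in 1 library. Stress response genes gave 3 of 11 genes and 9 of 25 peaks (36.0%), and the lacking loci of ATF6, HSPA8 and XBP1 each had a peak in 1 library, at percentiles of 19.9, 15.3 and 0.966.

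Housekeeping groups spread on both sides of the background. Genes with only peaks lacking the core numbered 2 of 19 for cytosolic ribosomal proteins, 5 of 32 for RNA splicing, 6 of 27 for mitochondrial ribosomal proteins, 4 of 17 for the respiratory chain, 3 of 11 for histones and 7 of 15 for the proteasome. Of their peaks, 7 of 32, 21 of 91, 25 of 60, 12 of 38, 8 of 20 and 12 of 34 lacked the core, in the same order. The proteasome count was the highest share of genes among the lists (46.7%), but its share of peaks (35.3%) was close to that of all promoter peaks. PSMD6, a subunit of the proteasome lid, had peaks in both HCT116 HIF-1α replicates (percentiles 51.8 and 66.3) with no core anywhere in them. MRPS26, a subunit of the mitochondrial ribosome, had peaks in 5 HIF-1α libraries at percentiles of 19.1 to 87.2. Zinc finger (ZNF) genes were the largest list, with 37 of 124 genes (29.8%) and 124 of 318 peaks (39%).

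Short recognition sequences of other promoter factors were counted in the same central 200 bp on both strands. SP1 (GGGCGG) was present in 58.8% of peaks lacking the core, 61.3% of peaks holding it and 24.6% of all promoter windows, and over groups its share was 53.1% against 61.2% (-8.12 points, lower in 8 of 8 groups, adjusted p = 0.0391, exact sign-flip permutation test), a direction that turned to 1.40 points within classes of CpG count. NRF1 (GCGCATGCG) was rare, in 0.655%, 1.67% and 0.374%, and lower in 7 of 8 groups (-0.921 points, adjusted p = 0.0391, exact sign-flip permutation test); within CpG classes the difference was -0.689 points and did not pass. ETS (CCGGAA) was found in 16.9%, 17.4% and 6.95%, and the difference over groups of -1.26 points (SD 3.48) did not pass (adjusted p = 0.612, exact permutation test). NFY (CCAAT) was found in 12.8%, 13.1% and 20.4%, with a difference of 0.468 points (SD 1.67, adjusted p = 0.850, exact permutation test). AP-1 (TGANTCA) was found in 3.09%, 3.19% and 4.11%, with a difference of -0.103 points (SD 2.98, adjusted p = 0.938, exact permutation test). Peaks of both kinds thus held ETS and SP1 sequences more often than promoter windows at large, whose CpG content was lower, and NFY less often.

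Further sequences were counted with no test. The CRE (TGACGTCA) was in 0.678% of peaks lacking the core, 1.79% of those holding it and 0.378% of promoter windows. YY1 (AAGATGGCG) was in 1.54%, 1.50% and 0.483%, and ZNF143 (ACTACAA) in 1.01%, 1.52% and 1.71%. The first-base neighbours of the core, marked in the sequences above, were in 47.5% of peaks lacking the core, 50.7% of those holding it and 31.3% of promoter windows. CACGTG, which always contains the core, was in 12.3% of peaks holding it and 3.40% of windows. None of the other sequences contains the core, though they can share end bases with it.

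Position and width differed little. Centres of peaks lacking the core lay a median of 138 bp from the nearest start, against 122 bp, and were further away in 7 of 8 groups (difference in log10 of distance 0.0904, SD 0.0912, adjusted p = 0.0586, exact sign-flip permutation test). T47D HIF-1α was the exception, at 92.8 bp against 110 bp. Median widths were 1347 bp and 1238 bp, and peaks lacking the core were wider in 7 of 8 groups (0.0207 in log10, SD 0.0234, adjusted p = 0.0586, exact permutation test), the exception being PC3 HIF-2α. Fewer of them had centres upstream of the start, 41.5% against 49.8%, with the difference between -13.1 and 3.37 points and negative in 6 of 8 groups, which was not tested.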

How the data were processed

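The authors trimmed reads with Trim Galore 0.3.3, aligned them to GRCh37 with BWA and ran MACS on every library by itself (tools from the methods and the submitters' processing notes). The MACS version is not given in the sources used here. For its own peaks the study also used the caller T-PIC, a filter against random background regions and overlap between replicates. Its high-confidence HIF sites further needed HIF-1β peaks. Here each library's list was used, with neither replicate overlap nor a HIF-1β peak required, so these peaks are not the study's HIF sites. Each deposited list gives a score per peak, the authors' own, whose scale is not stated and whose lowest value was 50 to 50.15. The score was used only to rank peaks. Read depth is unknown, and lists held 275 to 4505 peaks. Of 23398 peaks, 29 off chromosomes 1 to 22, X and Y were left out.

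Start sites were those of GENCODE release 44 mapped to GRCh37 (78701 of protein-coding transcripts). Peaks overlapped when they shared 1 bp. Tested values were computed per library and averaged over replicates, and the 8 groups were the units of two-sided exact sign-flip tests (256 flips). These tests take the groups as independent. The 2 groups of a line share its cells, and overlaps between groups were counted from both sides, so the p-values may be too small. Values by core copies, by ring and upstream of the start pooled the peaks of both replicates of a group. Isoform labels were exchanged within lines (1296 ways). P-values were adjusted by the Benjamini-Hochberg method over 10 tests, and over 5 for other motifs, with a threshold of 0.05. A CpG count of 20 or more formed 1 class. Python 3.11.15, numpy 2.4.6, scipy 1.17.1, pandas 2.3.3 and pysam 0.24.0 were used, and the functions were tested on simulated data.

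Members, gene lists and tests were chosen with earlier results of these data known. Named loci were the 10 lacking the core in both replicates of most groups (ties by mean percentile), the best of each group, genes of the list of 48 whose best promoter locus lacked it, the 3 of each other list in most libraries, and 5 holding it in most groups. CpG content, copies, edges and loci are descriptions with no test. The exclusion of HCT116 and PC3 HIF-1α libraries was added after seeing the data.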

Additional observations from a re-analysis of the deposited data

How the results depend on the processing

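Of the recomputed values, 289 kept their direction and their side of the threshold, 38 lost the call, 12 gained it and 24 changed sign, and the cause was not tested. The isoform difference in share changed sign with a window of 400 bp (-0.885), the entire peak searched (-2.02) and equal numbers of best-scoring peaks (-3.17), and leaving out 1 library or line it lay between -1.69 and 2.57. The HIF-1α line variance lost its call at 400 bp (15.4), over the entire peak (0.0319), with scores at or above the median (39.3) and with equal numbers (14.5), and lay between 28.6 and 38.5 without 1 library, the call being lost without either A549 replicate (33.0 and 33.6), either PC3 replicate (36.7 and 32.2) or T47D replicate 2 (29.1). The HIF-2α variance passed within 500 bp of a start (63.4) and without T47D replicate 1 (66.8), with a lowest value of 25.3. The score gap passed over the entire peak (-21.9), within 500 bp (-5.63) and within CpG classes (-4.45), and without A549 HIF-1α replicate 3 (-5.82) or A549 HIF-2α replicate 2 (-5.44), with a range of -7.08 to -1.81, and its isoform difference changed sign at scores above the median (-6.28), with a range of -3.67 to 6.86.

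Replicate recovery lost its call at 400 bp (-7.70), over the entire peak (-18.4), at scores above the median (-4.43), with equal numbers (-8.55) and within CpG classes (-7.20); recovery by the other isoform at scores above the median (-7.16) and with equal numbers (-9.30); and recovery in another line with equal numbers (-10.4) and within CpG classes (-8.13). Leaving out single libraries or lines they lay between -10.9 and -7.20, -13.5 and -10.0, and -15.5 and -9.77, and each kept its sign. For replicate recovery, leaving out a library removed its whole group. With 6 groups the exact permutation test cannot go below p = 0.0312, so leaving out any line, or the HCT116 and PC3 HIF-1α groups (-9.001, -15.0 and -13.2), ended each of these calls, and that for the other isoform was also lost without A549 HIF-1α replicate 2 (-10.9). Distance passed with 16 libraries as units (0.0904; range 0.0570 to 0.106). Width changed sign over the entire peak (-0.121) and passed at scores above the median (0.0524), with equal numbers (0.0506) and within CpG classes (0.0310), and without PC3 HIF-2α replicate 1 (0.0272; lowest 0.0143). Within CpG classes the NRF1 difference lost its call (-0.689; range -1.13 to -0.714), as it did without PC3 HIF-2α replicate 2 (-0.855) or T47D HIF-1α replicate 2 (-0.714), and SP1 (1.40; range -9.46 to -6.77) and NFY (-0.635; range -0.496 to 1.43) changed sign. SP1 also lost its call without T47D HIF-1α replicate 1 (-7.56). AP-1 ranged from -0.832 to 0.626. ETS kept its sign throughout.

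Replicate numbers were not treated as pairs, since no label says that they are. Correlations between same-numbered isoform libraries were -0.0451 to 0.0460 over loci. Absent peaks counted as 0 there, so loci bound in 1 isoform only lower the correlation, and the check cannot exclude pairing. A replicate block left the isoform difference in share at 0.417 points (p = 0.836, exact permutation test) and in the score gap at 1.59 points, with no call changed. Depth is unknown, so absence from a list is no evidence of absent binding, and the short HIF-2α lists limit every HIF-2α share.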
